A study of Mus musculus with 42 samples.

Results

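The comparison set 6 arrays of embryoid bodies on day 14 of hepatic differentiation against 6 arrays on day 7, out of 42 arrays in the series. Embryoid bodies are floating aggregates in which pluripotent cells differentiate. The arrays were chosen by title and came from 3 mouse lines. One is of embryonic stem (ES) cells, and the others, GPSC-A and GPSC-B, are lots A and B of pluripotent stem cells derived from germline cells (GPSC). Each line gave 2 arrays per day. All 12 cultures had been kept in embryoid bodies with the same hepatic differentiation cocktail, and no further agent or allele is named. The sources used here do not give the cocktail's composition, the strain of the cells or whether the 2 arrays of a line and day came from separate cultures. The p-values below therefore rest on a spread between arrays that may be technical. The study also profiled the lines on days 0 (untreated), 2, 21 and 28 and primary hepatocytes of embryonic day 16 (E16) and postnatal day 1 (PN1), with 3 arrays per hepatocyte stage.

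In the embryo, liver arises from definitive endoderm. Epiblast cells pass through the primitive streak under Nodal and Wnt signals, some become mesendoderm and then endoderm, and foregut endoderm next to the heart field and the septum transversum mesenchyme forms hepatoblasts. Hepatoblasts soon secrete fetal plasma proteins such as alpha-fetoprotein, albumin, apolipoproteins and transferrin. Mesendoderm also gives heart, vessel and blood lineages, and embryoid bodies usually hold several lineages at once. The arrays measured RNA of whole cultures, so a change in the number of cells of a type and a change of RNA per cell cannot be told apart.

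Levels below are log2 signals after background correction and quantile normalisation of the Illumina bead arrays. A probe is called detected on an array where its detection p is under 0.01, and 9388 genes with a probe detected on at least 2 of the 12 arrays were tested, with the line as a block. A gene is called where the Benjamini-Hochberg adjusted p of the limma fit is under 0.05 and the change at least 2-fold. Changes are day 14 minus day 7 on the log2 scale ± the standard error, from 6 arrays per day. Where a probe was detected on no array of one day, only a bound is given ("at least N-fold"), taken per array against the lowest signal detected there, or against the probe itself where that was higher. Such genes (422 undetected on day 7, 131 on day 14) entered the test through the other day alone. Their adjusted p-values set signal against background readings and are no separate support for a change. Changes of genes detected on only some arrays of a day include background readings of the others, so their size is uncertain. Between 11058 and 14803 probes were detected per array. Their mean was 12738 on day 7 and 13438 on day 14, a difference within the spread of the arrays (exact permutation test within lines, two-sided p = 0.27, smallest possible 0.0093). Log2 values of the 2 arrays of a line and day correlated across genes at 0.966 to 0.980.

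Between day 7 and day 14, 596 genes were called higher (6.35% of those tested) and 283 lower (3.01%). These shares are the background for every count of list members below, and a list near them shows no trait of its own. The median change of all genes was -0.03. With arrays scaled by their medians in place of quantiles the split was 771 higher and 213 lower. Rises were also larger: 149 genes rose and 24 fell by at least 4-fold, and 45 rose and 4 fell by at least 8-fold. The 4 were Sfn, Acta1, Foxh1 and Vrtn. All 6 day 14 arrays lay above all 6 day 7 arrays for 484 of the 9388 genes (5.16%) and below them for 311 (3.31%). Among called genes the days did not overlap for 306 of the 596 higher and 105 of the 283 lower. Among the genes called higher, 111 were detected on no day 7 array. Among those called lower, 9 were detected on no day 14 array. The 3 lines changed in the same direction for 574 of the 596 higher and 259 of the 283 lower genes. As these genes were picked by their joint change over the same lines, such counts are largely set by the selection and do not test agreement. Called genes had 379 further kept probes, of which 194 passed in the same direction, 0 passed in the other direction (limma) and 185 did not pass.

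A number of primitive streak genes were lower on day 14. Of the 20 streak and mesendoderm factors listed, 18 had a probe and 14 were tested, 3 of them because of day 7 detection alone. Of these, 6 were called lower and 0 higher (limma; 9 lower and 1 higher at an unadjusted p under 0.05) against backgrounds of 3.01% and 6.35%. The median was -0.83 as fitted and -0.67 when bounds stood in for undetected members. Brachyury was not analysed here. Eomes, a T-box factor needed for endoderm formation, read 6.22, 7.71 and 8.52 on day 7 (lowest, median and highest array) and 4.52, 5.74 and 6.02 on day 14. Every day 14 array was below every day 7 array, and the change was -2.10 ± 0.18 (adjusted p = 1.1e-05). It was detected on 6 and then 3 arrays. Mixl1, a homeobox gene of the streak, was detected on 5 day 7 arrays at up to 8.72 and on 0 day 14 arrays, at least 2.79-fold lower (adjusted p = 0.00076). Its day 7 levels ran from 5.07 in ES to 8.72 in GPSC-A, so the groups overlapped, but within each line both day 14 arrays were lower. Lhx1, a LIM homeobox gene of the organiser, went from 9.23, 12.07 and 12.77 to 6.33, 9.71 and 10.76 and changed by -2.29 ± 0.27 (adjusted p = 0.00011). Its ranges overlapped because the ES arrays were the lowest on both days. Evx1, a homeobox gene of the posterior streak, fell by 1.88 ± 0.26 on the log2 scale, from 8.13 to 9.45 down to 6.22 to 7.63 (adjusted p = 0.00034), with no overlap of the days. Fgf8, a growth factor that streak cells need to migrate, changed by -2.11 ± 0.20 (adjusted p = 2.4e-05) and was still detected on all 6 day 14 arrays, at 7.91 to 10.82. Cdx2, a posterior homeobox gene, was detected on 4 and then 1 arrays and changed by -1.80 ± 0.29 (adjusted p = 0.00087). Gsc (goosecoid), an organiser gene, did not pass: it read 7.37, 9.26 and 10.85 on day 7 and 6.01, 9.11 and 10.37 on day 14, a difference of -0.44 ± 0.47 (adjusted p = 0.55).

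**Figure D1:**
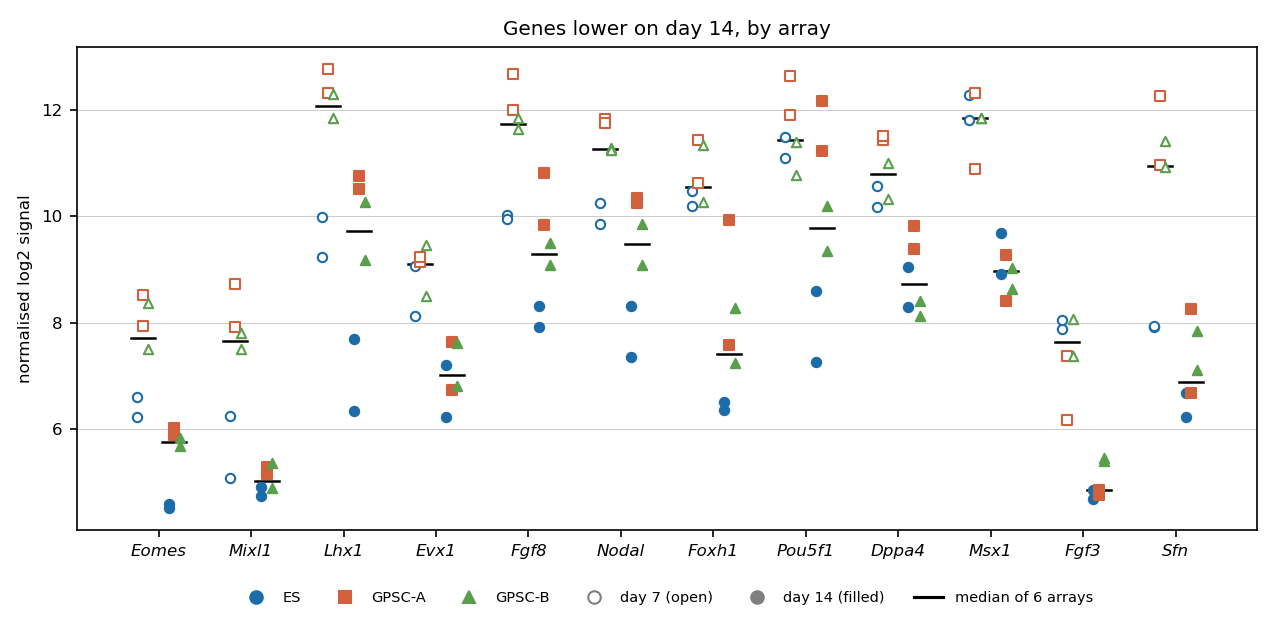
Normalised log2 signal (vertical axis) of 12 genes that were lower on day 14, for each of the 12 arrays; open symbols are day 7, filled symbols day 14, shapes and colours mark the line, and bars are the median of the 6 arrays of a day. Eomes, Evx1, Foxh1, Dppa4, Msx1 and Fgf3 have no day 14 array at or above a day 7 array, while Lhx1, Fgf8 and Nodal overlap because the ES arrays are lower on both days.

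The promoter of Evx1 is shown because it is the only one with a T-box half-site (AGGTGT, either strand) among the 4 lower streak genes with a RefSeq entry (Cdx2, Eomes, Evx1 and Lhx1), Eomes and Brachyury being T-box factors. The window runs from 250 bases before the annotated start to 50 after, 5′ to 3′ along the gene, at chr6:52313248-52313547 (GRCm38.p6, plus strand), and capitals mark the half-site, read on the reverse strand. It begins 38 bases before the start.
Evx1: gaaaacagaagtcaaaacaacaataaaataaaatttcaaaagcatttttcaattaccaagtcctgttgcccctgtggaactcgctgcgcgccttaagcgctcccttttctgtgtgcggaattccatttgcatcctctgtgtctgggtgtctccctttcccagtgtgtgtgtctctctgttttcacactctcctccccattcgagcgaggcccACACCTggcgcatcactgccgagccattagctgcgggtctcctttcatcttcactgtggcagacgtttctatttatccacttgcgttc
Of all 32851 promoter entries of this length, 13.7% hold AGGTGT. Among the 9 higher liver genes with an entry, shown further on, 4 hold it, Vtn included. A match is a description of the letters and does not show binding.

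Nodal and several genes of its pathway were lower. Nodal itself, the ligand that induces mesendoderm, went from 9.86, 11.27 and 11.83 to 7.35, 9.47 and 10.35, a change of -1.84 ± 0.21 (adjusted p = 6.8e-05), and in each line both day 14 arrays were lower. Foxh1, the DNA-binding partner of Smad2 in the Nodal pathway, had the third largest fall among genes detected on both days: it read 10.20, 10.55 and 11.44 on day 7 and 6.36, 7.41 and 9.93 on day 14, with no overlap, and changed by -3.08 ± 0.40 (adjusted p = 2e-04). The feedback inhibitors Lefty1 and Lefty2 changed by -1.42 ± 0.24 and -2.36 ± 0.31 (adjusted p = 0.0013 and 2e-04). Lefty2 was left detected on 2 arrays. Of the 18 tested members of the Nodal and BMP list 6 were called lower and 3 higher, with a median of -0.62. Among the 3 higher, Id2, a target of BMP signals, rose from 8.46 to 10.73 on day 7 to 11.01 to 11.59 on day 14 (1.82 ± 0.27, adjusted p = 0.00052), and Gdf1, a TGF-beta family ligand, rose by 1.51 ± 0.29 (adjusted p = 0.0028). Both had no overlap between days.

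In the Wnt list of 18 tested genes 4 were lower (22.2%) and 2 higher (11.1%), and the median was -0.15. Axin2, a direct target of Wnt signalling through beta-catenin, fell from 10.06, 10.52 and 11.20 to 8.71, 9.15 and 9.63, by 1.42 ± 0.22 on the log2 scale (adjusted p = 7e-04), and the receptor Fzd10 fell by 1.76 ± 0.18 (adjusted p = 3.2e-05), each without overlap. Of the higher ones, of which 1 was left without the first GPSC-A array of day 14, the secreted antagonist Sfrp1 rose by 1.77 ± 0.28 (adjusted p = 7e-04). Among the further falls, Msx1, a homeobox gene, went from 10.88, 11.84 and 12.31 to 8.41, 8.97 and 9.69 (-2.84 ± 0.25, adjusted p = 1.3e-05). All 6 day 14 arrays were below the day 7 arrays, and the change was -2.75 for GPSC-A, -3.02 for GPSC-B and -2.74 for ES. Fgf3, a growth factor of the posterior embryo, was detected on all 6 day 7 arrays at 6.16 to 8.07 and on 0 day 14 arrays, at least 3.37-fold lower (adjusted p = 2.7e-05). Etv2, the ETS factor that starts the blood and endothelial programme, changed by -2.28 ± 0.29 and Aplnr, the apelin receptor of early mesoderm, by -2.21 ± 0.23 (adjusted p = 0.00017 and 4.5e-05), both with no overlap. Vrtn, a gene that sets vertebra number in pigs, fell by 3.02 ± 0.29 on the log2 scale (adjusted p = 2.4e-05).

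A number of pluripotency genes were lower on day 14. Of 24 tested members of that list 12 were called lower and 0 higher (limma; 16 and 1 at an unadjusted p under 0.05), and the median was -0.99. No tested member differed by line in the F test. The count was 4 when GPSC-B was left out, and 3 in a fit that ignored the line. Pou5f1 (Oct4), the core pluripotency factor, went from 10.78, 11.44 and 12.64 to 7.25, 9.77 and 12.16, with both GPSC-A arrays of day 14 still at 11.23 and 12.16. Its change was -1.75 ± 0.43 (adjusted p = 0.0099), made up of -0.58 for GPSC-A, -1.31 for GPSC-B and -3.36 for ES, a difference between lines that did not pass its own test (adjusted p = 0.16). The de novo DNA methyltransferase Dnmt3b had the same order, with -0.39, -1.05 and -2.80 (overall -1.41 ± 0.34, adjusted p = 0.0094; between lines, adjusted p = 0.083). Sall4, a zinc finger partner of Oct4, changed by -1.55 ± 0.39 (adjusted p = 0.012). Dppa4, a chromatin protein of pluripotent cells, fell in all lines, and its day 14 arrays at 8.12 to 9.82 lay below those of day 7 at 10.17 to 11.50 (-1.99 ± 0.20, adjusted p = 2.6e-05). Dnmt3l, the methyltransferase cofactor, changed by -1.69 ± 0.25 (adjusted p = 0.00052). Nanog had missed the detection filter, with detection on 1 day 7 array and 0 day 14 arrays. The epiblast genes Fgf5 and Pou3f1 fell by 1.36 ± 0.29 and 1.60 ± 0.21 on the log2 scale (adjusted p = 0.0047 and 0.00019).

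Of 16 tested simple epithelium and cholangiocyte genes 4 were called lower (25%) and 1 higher (6.25%, near the share of all genes), with a median of -0.50. The simple keratins Krt8 and Krt18, partner filaments of early epithelia and of trophoblast, changed by -2.12 ± 0.26 and -1.61 ± 0.28 (adjusted p = 0.00015 and 0.0015), with no overlap between days. Krt8 read 8.93, 10.28 and 11.30 on day 7 and 7.01, 8.11 and 8.77 on day 14. In the keratin and surface ectoderm list, with 2 of 10 genes lower, Sfn (stratifin), an epithelial adaptor protein, had the largest fall of the genes detected on both days, -3.11 ± 0.43 (adjusted p = 0.00034), from 7.92, 10.95 and 12.26 to 6.23, 6.89 and 8.25. Acta1, skeletal alpha-actin and thus not an epithelial gene, was close behind with -3.10 ± 0.40 (adjusted p = 0.00018), and its changes differed by line, with -1.34 for ES against -3.93 and -4.02 for the GPSC lines (adjusted p = 0.032). Cldn4, a tight junction claudin, was at 12.67 in the median day 7 array and 10.59 on day 14 (-1.46 ± 0.36, adjusted p = 0.0098), with 0.16 for ES against -2.31 and -2.23 for the GPSC lines (difference between lines, adjusted p = 0.019).

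Markers of definitive endoderm were scarce on both days. Sox17 was detected on 4 day 7 arrays, at up to 7.26, and on 0 day 14 arrays. Its change was not called (adjusted p = 0.055). Cer1, a secreted Nodal and BMP antagonist of anterior endoderm, was detected on 4 and then 2 arrays and did not pass (-0.46 ± 0.21, adjusted p = 0.13). Foxa2 and Cxcr4, which label endoderm, were each detected on 1 day 7 array and 0 day 14 arrays and were not tested. Of the 12 tested members of the endoderm and foregut list 2 were higher (16.7%) and 1 lower (8.33%), with a median of -0.18. The higher ones were Shh (sonic hedgehog) and Gata6, a zinc finger factor of endoderm and heart. Shh went from 8.74, 8.98 and 9.85 to 9.14, 11.77 and 13.06, which is a change of 2.19 ± 0.38 (adjusted p = 0.0014), with 3.33 for GPSC-A, 2.59 for GPSC-B and 0.65 for ES (between lines, adjusted p = 0.089). Gata6 rose by 1.10 ± 0.30 (adjusted p = 0.017), and by 0.91, under the 2-fold limit, without the second GPSC-A array of day 14. The lower one was Trh, thyrotropin-releasing hormone, at -2.15 ± 0.26 (adjusted p = 0.00011). Foxa1, a pioneer factor of foregut endoderm, was detected on all 12 arrays at 7.49 to 10.01 and did not pass (0.60 ± 0.24, adjusted p = 0.083). Tbx3, a T-box factor of the liver bud, did not pass either (-0.65 ± 0.26, adjusted p = 0.082).

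Some plasma protein genes of liver rose over the same week. Of 42 listed genes of hepatoblasts and fetal secreted proteins 40 had a probe, 18 of these missed the detection filter and 22 were tested. Among the 22, 9 had passed through day 14 detection alone, so that the count favours rises. In that set 11 were called higher and 0 lower (limma; 16 and 0 at an unadjusted p under 0.05), with a median of 0.99, or 0.72 with undetected members at their bounds, against -0.03 and -0.02 for all genes. Without GPSC-B 7 were called. Serpina1b, an alpha-1-antitrypsin, was detected on 0 day 7 arrays, at 4.59 to 5.69, and on all 6 day 14 arrays, at 7.87, 9.08 and 9.75. It was at least 8.63-fold higher (adjusted p = 4e-06), with bounds of 9.53-fold for GPSC-A, 13.2-fold for GPSC-B and 5.12-fold for ES. The mouse has several nearly identical Serpina1 genes, whose transcripts this probe may share. Apoa1, the main protein of HDL, was undetected on day 7 and read 6.23, 7.85 and 9.28 on day 14, at least 4.17-fold higher (adjusted p = 0.00035). Vtn (vitronectin) was detected on 1 and then 6 arrays, at 4.73, 5.41 and 6.40 and then 7.97, 8.35 and 9.88, and rose by 3.13 ± 0.34 (adjusted p = 5.8e-05). For these 3 genes the days did not overlap.

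The promoters of Serpina1b and Vtn follow because they are the 2 among the 9 higher members with a RefSeq entry that hold a half-site of the hepatic factor HNF1-alpha (GTTAAT, either strand). Both windows run from 250 bases before the annotated start to 50 after, 5′ to 3′ along the gene. Serpina1b lies at chr12:103738140-103738439 on the minus strand and Vtn at chr11:78498870-78499169 on the plus strand (GRCm38.p6). Capitals mark GTTAAT, which begins 26 bases before the start in Serpina1b and, on the reverse strand, 112 bases before it in Vtn. In Vtn they also mark 2 overlapping matches to a TATA box (TATAAA, either strand).
Serpina1b: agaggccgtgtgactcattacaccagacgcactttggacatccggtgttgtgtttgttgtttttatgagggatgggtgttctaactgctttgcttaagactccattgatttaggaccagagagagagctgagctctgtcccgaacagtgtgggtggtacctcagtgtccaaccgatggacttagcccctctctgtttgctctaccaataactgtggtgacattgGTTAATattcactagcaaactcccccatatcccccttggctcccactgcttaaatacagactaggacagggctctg
Vtn: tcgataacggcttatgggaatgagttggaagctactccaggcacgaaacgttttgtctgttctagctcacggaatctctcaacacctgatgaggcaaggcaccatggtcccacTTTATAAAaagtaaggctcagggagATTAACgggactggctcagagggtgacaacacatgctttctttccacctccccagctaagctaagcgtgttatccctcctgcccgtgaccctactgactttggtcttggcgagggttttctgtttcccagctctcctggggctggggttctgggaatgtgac
GTTAAT is present in 7.1% of all promoter entries of this length and TATAAA in 13.6%. It is also in 1 of the 4 lower streak genes, Cdx2. The GATA site AGATAA, searched on both strands too, is in neither window, and 11.2% of all entries hold it. Binding of the factor was not measured.

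Further members of that list were called. Dlk1, an imprinted surface protein of hepatoblasts and many other fetal cells, was already present on day 7 at 7.37, 9.86 and 12.75 and reached 13.23, 14.29 and 14.80. Its change of 4.02 ± 0.52 (adjusted p = 2e-04) was 1.79 for ES, whose day 7 arrays were the highest at 12.63 and 12.75, against 5.69 for GPSC-A and 4.59 for GPSC-B (difference between lines, adjusted p = 0.033). Ambp, the precursor of alpha-1-microglobulin, was detected on 0 and then 4 arrays, at least 2.05-fold higher (adjusted p = 0.0031). Apoa2, another HDL protein, was called higher (adjusted p = 0.0096). It was undetected on day 7 in ES and GPSC-B, where it was at least 2.08-fold and 9-fold higher on day 14, and was detected on 1 GPSC-A array of each day. Transferrin (Trf) rested on few arrays: on day 14 ES read 4.79 and 9.07, GPSC-A 5.26 and 7.56, and GPSC-B 9.20 and 8.48. Its rise of 1.99 ± 0.68 (adjusted p = 0.045) was not called with replicate numbers as a block (adjusted p = 0.051), nor in 9 of the 12 fits that left out 1 array.

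Albumin (Alb) and alpha-fetoprotein (Afp) were detected on 0 of the 12 arrays, with levels of 4.52 to 4.90 and 4.45 to 4.86. In E16 hepatocytes the same probes read 7.67 ± 0.39 and 10.15 ± 0.08 (SD, n = 3 arrays). As the Alb probe was dim in hepatocytes too, its lack of detection in culture does not show that albumin RNA was absent. Ttr (transthyretin) was detected on 1 day 14 array of ES, at 6.12, against 10.22 ± 0.20 in E16 hepatocytes. Hnf4a, the central hepatocyte nuclear receptor, was detected on 2 day 7 arrays and 1 day 14 array and differed by 0.05 ± 0.17 (adjusted p = 0.87). Of 12 tested hepatocyte transcription factors 1 (8.33%, near the 6.35% of all genes) was called higher, Gata6, and 0 lower (limma; 4 and 3 at an unadjusted p under 0.05), with a median of -0.03. Of the 5 hepatocyte markers Alb, Afp, Ttr, Apoa1 and Hnf4a, Apoa1 was thus the only one called, and their mean level was 4.80 to 5.09 on day 7 and 5.22 to 5.99 on day 14. Several of the liver genes that rose were far below fetal liver cells. Serpina1b stood at 8.38 to 9.50 in the 3 line means of day 14 and at 15.92 ± 0.06 in E16 hepatocytes. Apoa1 stood at 7.06 to 8.46 and 14.31 ± 0.05, and Vtn at 8.31 to 8.92 and 13.81 ± 0.11. With undetected arrays included, Ambp stood at 5.78 to 8.38 and 14.51 ± 0.12, and Apoa2 at 6.56 to 8.95 and 14.62 ± 0.10. Likewise Trf stood at 6.41 to 8.84 and 15.42 ± 0.31, and Adh1, described below, at 5.72 to 7.09 and 12.15 ± 0.28. Others were not: Dlk1 stood at 13.74 to 14.48 and 11.81 ± 0.46, and Masp1, described below, at 11.65 to 12.21 and 10.69 ± 0.40.

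**Figure D2:**
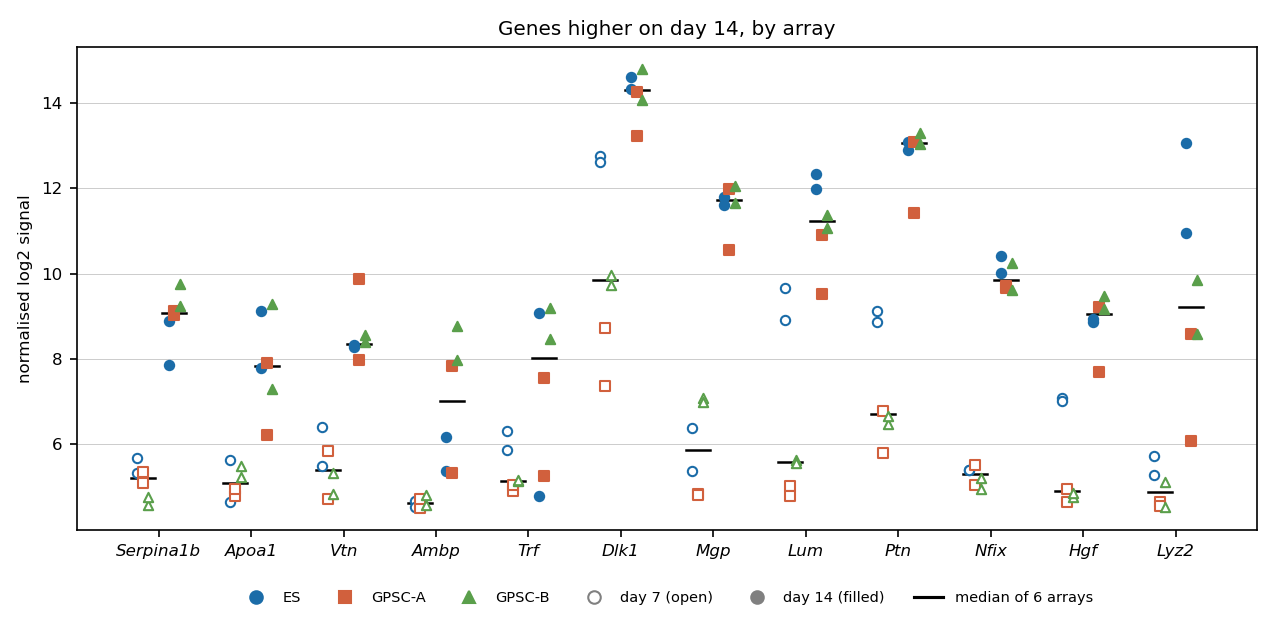
Normalised log2 signal (vertical axis) of 12 genes that were higher on day 14, for each of the 12 arrays; open symbols are day 7, filled symbols day 14, shapes and colours mark the line, and bars are the median of the 6 arrays of a day. Serpina1b, Apoa1, Vtn, Mgp, Ptn and Nfix have all day 14 arrays above all day 7 arrays, while the 6 day 14 values of Trf spread from 4.79 to 9.20.

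Few enzyme genes of liver were measurable. Of the 47 listed genes of hepatocyte metabolism 39 had a probe and 9 were tested. Of those, 3 were higher and 1 lower. Arg1, the last enzyme of the urea cycle, went from 5.42, 6.10 and 7.06 to 6.14, 8.36 and 9.17 (1.86 ± 0.26, adjusted p = 0.00037). Adh1, an alcohol dehydrogenase, was undetected on day 7, detected on 5 day 14 arrays and at least 1.66-fold higher (adjusted p = 0.0027). Cyp2d22, a cytochrome P450, rose by 1.30 ± 0.26 (adjusted p = 0.0032). The lower gene was Fah, the last enzyme of tyrosine breakdown, at -1.05 ± 0.17 (adjusted p = 0.00095), which stayed under 2-fold without the second GPSC-B array of day 7 (-0.93) or of day 14 (-0.98). In the coagulation and complement list 4 of 13 tested members were higher and 0 lower (limma; 4 and 2 at an unadjusted p under 0.05), with a median of 0.03. Masp1, a protease that starts the lectin pathway of complement, rose without overlap from 9.19 to 11.31 up to 11.57 to 12.50 (1.75 ± 0.24, adjusted p = 0.00025), and the C1 inhibitor Serping1 rose by 1.84 ± 0.23 (adjusted p = 0.00017). Hsd11b1, which regenerates active glucocorticoid, was detected on 1 and then 3 arrays and did not pass (0.35 ± 0.23, adjusted p = 0.29).

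The 3 largest rises were those of Mgp, Ptn and Fcgrt, which are in none of the gene lists. Mgp (matrix Gla protein), an inhibitor of calcification, read 4.81, 5.88 and 7.10 on day 7 and 10.56, 11.72 and 12.05 on day 14, a change of 5.69 ± 0.31 (adjusted p = 3.1e-07). Ptn (pleiotrophin), a heparin-binding growth factor, went from 5.79, 6.73 and 9.12 to 11.43, 13.06 and 13.30 (5.52 ± 0.40, adjusted p = 3.5e-06). Fcgrt, the neonatal Fc receptor that recycles IgG and albumin, rose by 5.20 ± 0.33 (adjusted p = 1e-06). In each of these 3 the lowest day 14 array was above the highest day 7 array. Among genes undetected on day 7 and detected on all day 14 arrays, the transcription factor Nfix had the largest bound, at least 16.8-fold (adjusted p = 8.6e-09), with 4.96 to 5.51 on day 7 and 9.61 to 10.41 on day 14. Hic1, a transcriptional repressor of mesenchymal progenitors, was at least 11.3-fold higher and the phosphodiesterase Pde1a at least 10.3-fold (adjusted p = 1.2e-07 and 3.8e-07).

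Of the 49 listed fibroblast, stellate cell and matrix genes 43 had a probe and 38 were tested, 5 of them through day 14 detection alone. Among these, 19 were called higher and 0 lower (limma; 28 and 0 at an unadjusted p under 0.05), with a median of 1.07, or 0.88 with bounds. Lum (lumican), a collagen-binding proteoglycan, read 4.80, 5.60 and 9.67 on day 7 and 9.53, 11.23 and 12.34 on day 14 (4.60 ± 0.41, adjusted p = 1.4e-05). The overlap came from ES, whose day 7 arrays stood at 8.92 and 9.67 while those of GPSC-A and GPSC-B lay between 4.80 and 5.63. Col6a1 and Col6a2, chains of collagen VI, rose by 3.25 ± 0.21 and 3.18 ± 0.27 (adjusted p = 1.2e-06 and 1.1e-05), without overlap. Dcn (decorin) was at least 3.24-fold higher (adjusted p = 0.00034), and Col1a1, a chain of collagen I, rose by 1.64 ± 0.30 (adjusted p = 0.0018). Tcf21, a bHLH factor of visceral mesenchyme and stellate cells, rose by 3.62 ± 0.31 (adjusted p = 1.1e-05), and Vcam1, an adhesion molecule, by 4.16 ± 0.21 (adjusted p = 2e-07). On day 7 Tcf21 was detected on 2 arrays and Vcam1 on 1. Of the 5 fibroblast markers Postn (periostin) was detected on 0 of the 12 arrays. The mean level of the 5 was 5.47 to 6.89 on day 7 and 7.05 to 8.71 on day 14, and the part of such cells in the other rises was not tested.

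Some growth factors and their receptors rose. Hgf, hepatocyte growth factor, made by mesenchyme and sensed by hepatoblasts, went from 4.66, 4.91 and 7.10 to 7.69, 9.06 and 9.49 (3.34 ± 0.38, adjusted p = 8.2e-05), with no overlap. It was detected on 2 day 7 arrays. Igf1 rose by 2.12 ± 0.41, its binding protein Igfbp5 by 2.60 ± 0.56 and the growth hormone receptor Ghr by 1.78 ± 0.27 (adjusted p = 0.0025, 0.0049 and 0.00057). They were the 3 genes called, all higher, among 14 tested members of the insulin-like growth factor list, where the median was 0.67. In ES, Igf1 and Igfbp5 differed by 0.48 and 0.23. In GPSC-B they differed by 3.18 and 3.45, and in GPSC-A by at least 5.28-fold and by 4.11, but the differences between lines did not pass (adjusted p = 0.096 and 0.053). Igf2, near the top of the scale on both days at 14.57 to 15.90, was not called (0.62 ± 0.17, adjusted p = 0.017, under 2-fold). Vegfa, the vascular growth factor, rose from 7.96 to 9.31 up to 9.86 to 10.64 (1.77 ± 0.17, adjusted p = 2.5e-05).

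Some Hox genes were higher on day 14. Of 38 listed Hox genes 37 had a probe and 19 were tested, 3 through day 14 detection alone. Of the 19, 6 were higher (31.6%) and 2 lower (10.5%), with a median of 0.55. The count of lower Hox genes was 0 or 1 in all 12 fits that left out 1 array, and 0 with median scaling, without background correction or without the line block. Hoxd10 rose by 3.14 ± 0.43, Hoxa5 by 2.87 ± 0.30 and Hoxd13 by 2.36 ± 0.40 (adjusted p = 0.00029, 4.2e-05 and 0.0012). Hoxa2 was undetected on day 7 and at least 3.23-fold higher (adjusted p = 1.4e-05). Hoxa2 and Hoxa5 had been detected on all 6 untreated arrays, with levels given below. Hoxd10 changed by 4.41 for GPSC-A, 3.70 for GPSC-B and 1.33 for ES, and Hoxd13 by 2.42 for GPSC-A, at least 11.3-fold for GPSC-B, where day 7 was undetected, and 0.73 for ES (between lines, adjusted p = 0.049 and 0.017). Outside that list, the Hox cofactor Meis1, the retinoic acid receptor Rarb and the nuclear receptor Nr2f2 (COUP-TFII) rose by 3.63 ± 0.34, 3.78 ± 0.34 and 3.50 ± 0.32 (adjusted p = 2e-05, 1.4e-05 and 1.5e-05). On day 7 Meis1 and Rarb were detected on 2 arrays each and Nr2f2 on 5. Ebf3, an early B-cell factor family member of mesenchyme, rose by 3.91 ± 0.43 (adjusted p = 6.8e-05), and by 2.03 in ES against 4.68 and 5.02 (between lines, adjusted p = 0.043). Each of these 4 had all day 14 arrays above the day 7 arrays.

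**Figure D3:**
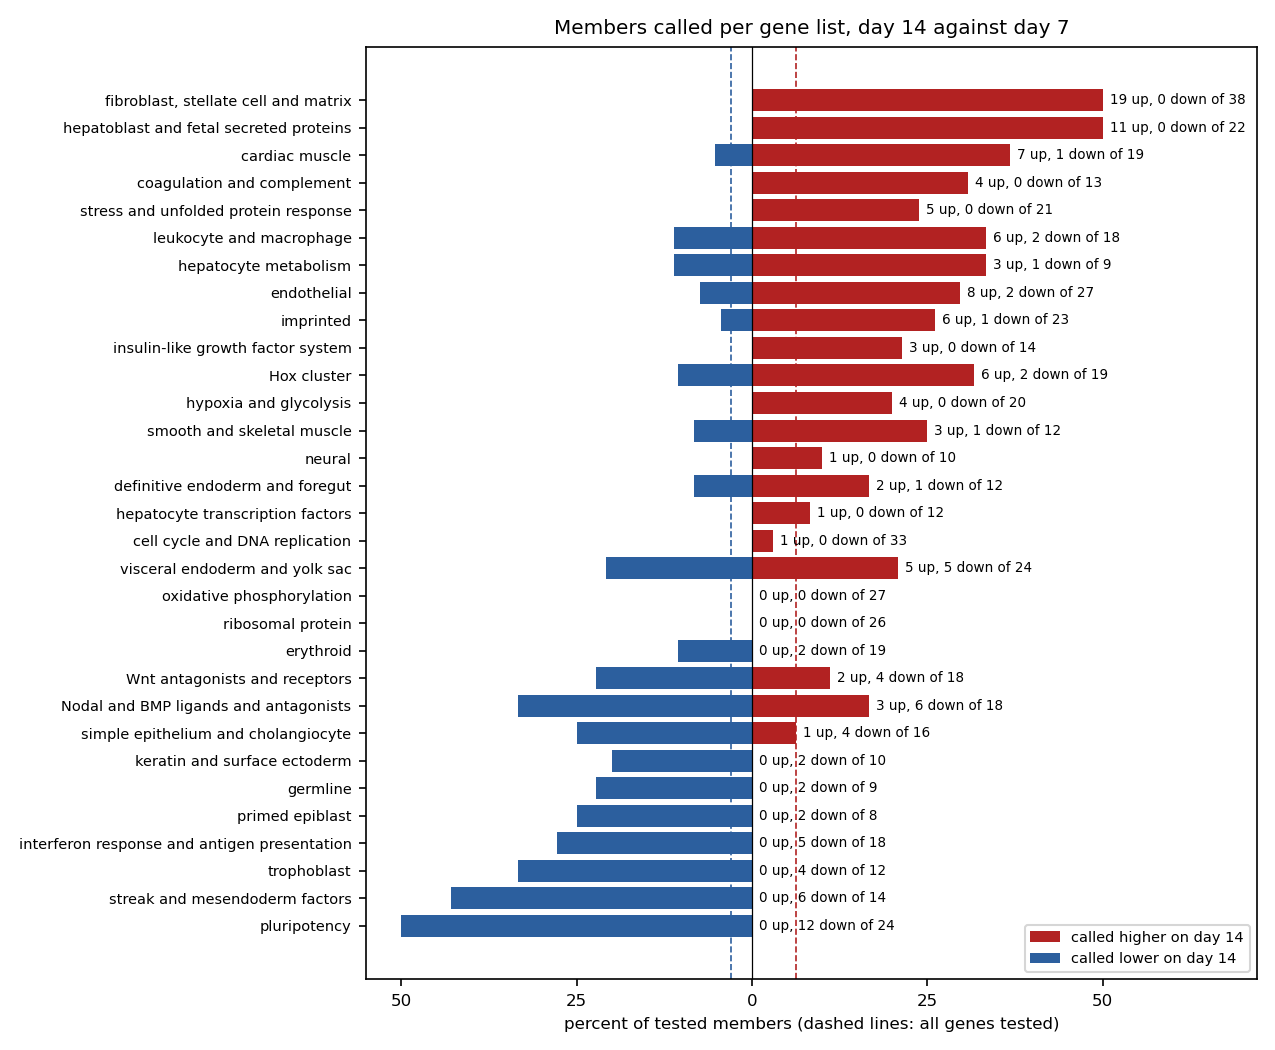
Share of the tested members of 31 gene lists called higher (right, red) or lower (left, blue) on day 14, in percent on the horizontal axis, with the counts beside each bar and dashed lines at the shares over all 9388 genes, 6.35% higher and 3.01% lower. The fibroblast and hepatoblast lists reach 50% higher and the pluripotency list 50% lower, while the ribosomal protein and oxidative phosphorylation lists have 0 members called.

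Other cell types of an embryoid body changed over the same interval. In the cardiac list 7 of 19 tested genes were higher (36.8%, against 6.35% of all genes) and 1 lower, Hand1 (5.26%, against 3.01%), with a median of 0.79. The count of higher genes was 3 without background correction or with an offset of 50, and 2 without the line block. Myl4, the atrial myosin light chain, rose from 9.15, 9.96 and 11.24 to 10.73, 11.99 and 13.62 (2.06 ± 0.19, adjusted p = 1.6e-05), with 1.88 for GPSC-A, 2.03 for GPSC-B and 2.28 for ES. Actc1, cardiac actin, rose by 1.24 ± 0.28 (adjusted p = 0.0065), and by 0.74, under the 2-fold limit, without ES. Outside that list, Cox6a2, a respiratory chain subunit of striated muscle, was undetected on day 7 and at least 8.27-fold higher (adjusted p = 0.00017). Myl7, another atrial light chain, was detected on 0 arrays. The cardiac marker Nkx2-5 was detected on 1 and then 3 arrays, at means of 5.83 and 5.72, and was not called. Mylk, the myosin light chain kinase of smooth muscle, rose by 4.12 ± 0.31 and Actg2, enteric smooth muscle actin, by 2.48 ± 0.36 (adjusted p = 3.7e-06 and 0.00045). Actg2 was detected on 1 day 7 array and Mylk on all 6. Acta2, smooth muscle alpha-actin, was at 15.23 to 15.77 on all 12 arrays and differed by 0.07 ± 0.12 (adjusted p = 0.72). Its levels were near the top of the scale, where a rise might not show.

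Of 27 tested endothelial genes 8 were higher (29.6%) and 2 lower (7.41%), the lower ones being the early genes Etv2 and Aplnr given above. The count of higher genes was 2 without background correction or with the authors' values, and 1 without the line block. Without ES 4 were lower. Emcn (endomucin), a sialomucin of veins and capillaries, was detected on both day 7 arrays of ES, at 7.13 and 7.67, and on none of the GPSC lines, and on day 14 it was at 8.49 to 9.63 on all arrays (3.34 ± 0.44, adjusted p = 0.00022; between lines, adjusted p = 0.023). The claudin Cldn5 was also detected on the ES arrays alone on day 7, and rose by 1.78 ± 0.29 (adjusted p = 0.00098). Its rise was 0.87, under the 2-fold limit, without background correction, and was not called without the line block. Kdr, the receptor of VEGF, was detected on 1 and then 2 arrays and did not pass (adjusted p = 0.98).

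Of the macrophage genes, Lyz2 and C1qb were higher. Lyz2 (lysozyme M) was undetected on day 7 and on day 14 read 6.08 and 8.58 for GPSC-A, 8.58 and 9.86 for GPSC-B, and 10.96 and 13.07 for ES, at least 12.5-fold higher overall (adjusted p = 0.00026). The probe may share transcripts with Lyz1, a near copy. C1qb, a chain of complement C1q, read 4.97 and 5.73, 7.88 and 8.26, and 8.34 and 11.51 in the same order, at least 3.74-fold higher (adjusted p = 0.004). Ptprc (CD45) was detected on 0 arrays and Csf1r on 1 array of each day, and the mean level of the 4 measured macrophage markers was 4.88 to 5.14 on day 7 and 4.99 to 7.36 on day 14. Of the 18 tested genes of the leukocyte list 6 were higher, with 5 tested through day 14 detection alone, and 2 lower, or 1 lower in 5 of the 12 fits that left out 1 array.

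Some stress genes rose in every line. Of 21 tested genes of that list 5 were higher and 0 lower (limma; 7 and 1 at an unadjusted p under 0.05), with a median of 0.05. All 5 had every day 14 array above every day 7 array, as had 306 of the 596 genes called higher. Chac1, a glutathione-degrading enzyme induced by ATF4, went from 4.73, 5.80 and 6.40 to 7.43, 8.56 and 10.88 (3.11 ± 0.55, adjusted p = 0.0015). The pseudokinase Trib3 rose by 2.45 ± 0.47, the factor Ddit3 (CHOP) by 1.71 ± 0.29 and the ER-associated degradation protein Herpud1 by 1.65 ± 0.31 (adjusted p = 0.0025, 0.0012 and 0.0025). Txnip, which binds thioredoxin and limits glucose uptake, rose by 1.55 ± 0.21 (adjusted p = 0.00022). By limma 0 of 26 ribosomal protein genes and 0 of 27 oxidative phosphorylation genes were called, with 3 and 2 at an unadjusted p under 0.05 and medians of -0.04 and 0.02. In the cell cycle and replication list 0 of 33 genes were called lower by limma, although 18 had an unadjusted p under 0.05 with a lower level on day 14, and 1 (3.03%) was called higher, Cdkn1c (p57), an imprinted cell cycle inhibitor. It went from 8.03, 9.65 and 15.64 to 10.79, 12.40 and 15.90 (1.94 ± 0.50, adjusted p = 0.013), and the list's median was -0.44. Cdkn1c changed by 1.62 for GPSC-A, 3.96 for GPSC-B and 0.25 for ES, already at 15.5 and 15.64 on day 7. It was not called without GPSC-A, without GPSC-B (0.93) or without the line block. Imprinted genes gave 6 higher (26.1%) and 1 lower (4.35%, near the 3.01% of all genes) of 23. Plagl1 (Zac1), a zinc finger factor, rose by 2.48 ± 0.24 and Usp29 by 1.81 ± 0.17 (adjusted p = 2.1e-05 and 2.2e-05), without overlap. Plagl1 was detected on 1 day 7 array and Usp29 on 6. Phlda2, a placental growth regulator, was the lower one (-1.79 ± 0.37, adjusted p = 0.0041).

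The days on either side place these changes in order. With the same rules, 900 genes (9.88% of 9106) were higher and 656 (7.20%) lower on day 7 than on day 2, and 622 (6.56% of 9479) were higher and 422 (4.45%) lower on day 21 than on day 14. These intervals share the day 7 or day 14 arrays with the comparison above. Eomes was detected on 2 of 6 arrays on day 2, both of ES, on 6 on day 7, 3 on day 14 and 0 on days 21 and 28. Mixl1 was detected on day 7 alone among the 6 days. Nodal ran down through the course, with a median of the 3 line means of 12.16 on day 0, 11.27 on day 7, 9.47 on day 14 and 7.64 on day 21. Etv2, Fgf8, Foxh1 and Trh were also detected on all 6 untreated arrays. Their median line means were 9.56, 10.88, 9.98 and 11.8 on day 0 and 9.53, 11.74, 10.8 and 12.69 on day 7. Etv2 was highest on day 2, at 11.01. Aplnr in contrast was detected on 0 arrays of days 0 and 2 and on 6 on day 7. Serpina1b and Apoa1 were undetected on days 0, 2 and 7, and their median line means were 9.08 and 8.29 on day 14, 9.92 and 9.36 on day 21, and 9.83 and 9.61 on day 28. Vtn and Ambp were likewise undetected on days 0 and 2. Apoa2 in contrast was detected on 2 arrays each of days 0 and 2. Its highest line mean was 8.64 on day 0, 8.71 on day 2 and 8.95 on day 14. Trf was detected on 5 untreated arrays, with a median line mean of 6.65, against 6.93 on day 14. Adh1 went from 7.02 on day 14 to 11.29 on day 21, against 12.15 ± 0.28 in E16 hepatocytes. Hgf had its highest median line mean on day 14, at 8.91, with 7.92 and 6.55 on days 21 and 28.

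Some of the genes with large rises had been detected in untreated cells. Mgp had a median line mean of 11.26 in untreated cells and 5.88 on day 7 before it reached 11.69 on day 14 and 14.73 on day 21. Fcgrt and Ptn, the others of the 3 largest rises, were at 9.32 and 8.48 on day 0 and 6.27 and 6.57 on day 7. Vcam1, Mylk and Col6a1 were at 8.03, 9.2 and 9.64 on day 0 and 5.0, 6.38 and 7.52 on day 7. Nfix went from 8.71 on day 0 to 5.29 on day 7 and 9.93 on day 14, and Hic1 from 6.79 to 4.99 and 9.50. Lyz2 was detected on all 6 untreated arrays, with a median line mean of 8.51, and on 0 on day 7. Hoxa2 and Hoxa5 had median line means of 7.55 and 9.39 on day 0, near their 7.86 and 9.47 on day 14. Hoxd10 and Hoxd13 were lower on day 0, at 5.63 and 6.19, than on day 14, at 10.64 and 8.28. Lum, Dcn and Hgf in contrast were at 5.07, 5.25 and 4.80 on day 0. The source of the day 0 signal was not tested.

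**Figure D4:**
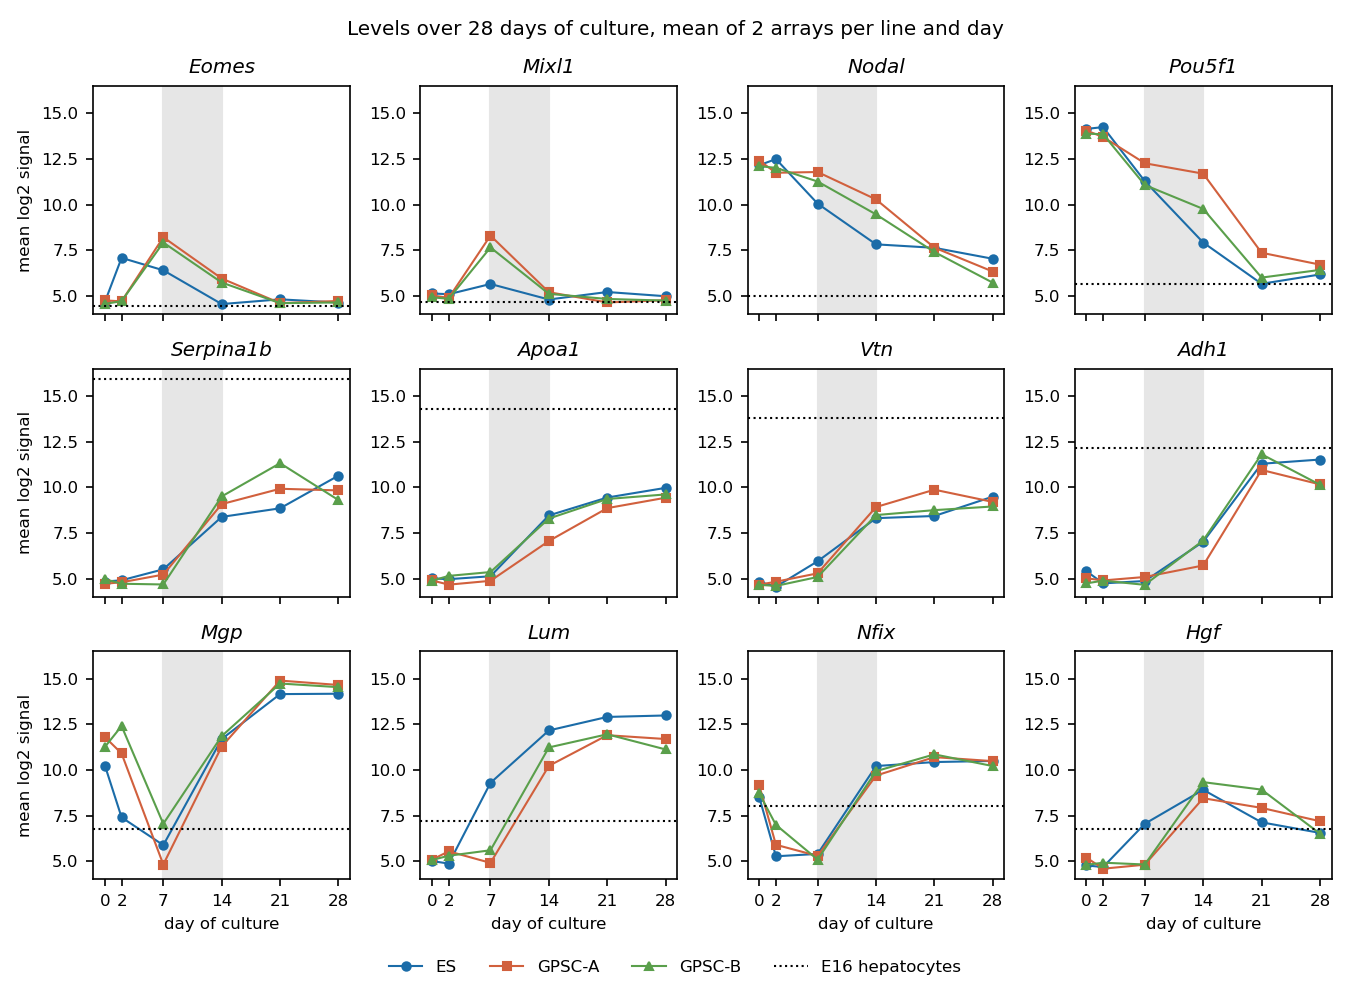
Mean log2 signal of 2 arrays (vertical axis) against day of culture (horizontal axis) for 12 genes in the 3 lines, with the interval from day 7 to day 14 shaded and a dotted line at the mean of E16 hepatocytes (3 arrays). Mixl1 peaks on day 7, Serpina1b, Apoa1 and Vtn leave the undetected range after day 7 and stay below E16 hepatocytes, and Mgp and Nfix dip on day 7.

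The change from day 7 to day 14 differed by line for 108 genes (1.15%) in an F test of the line-by-day terms, 67 with the ES change above the mean of the GPSC changes and 41 below. With replicate numbers as a block within lines the count was 353, of which 107 were among the 108. The count rested on single arrays: it was 20 and 27 without the first and second ES array of day 7, 62 without the second ES array of day 14, 70 without the first GPSC-A array of day 7, 53 and 54 without the first and second GPSC-B array of day 7, and 42 and 46 without the first and second GPSC-B array of day 14. Between the GPSC lines, 0 genes differed in their change by limma, with 150 at an unadjusted p under 0.05. Among the 108 genes 45 were higher in ES and lower in both GPSC lines and 16 the reverse.

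Lox (lysyl oxidase), which crosslinks collagen, had the smallest p. It was undetected in ES on day 7 and read 10.27 and 11.06 there on day 14, at least 25.1-fold higher, while GPSC-A went from 8.72 and 9.40 to 7.80 and 8.05 and GPSC-B differed by 0.06 (adjusted p = 0.00033). Embryonic globins ran the other way. Hbb-bh1, an embryonic beta-type globin, was at 11.86 and 12.11 in ES on day 7 and at 5.91 and 7.47 on day 14, whereas GPSC-A rose from undetected to 7.61 and 8.26, at least 4.30-fold, and GPSC-B differed by 0.03 (adjusted p = 0.0058). Hba-x, the embryonic alpha-type globin, was at least 2.16-fold higher for GPSC-A and changed by 1.86 for GPSC-B and -4.61 for ES (adjusted p = 0.031). Without ES its joint change was 2.07, against -0.16 in all 3 lines.

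Col2a1, Car3 and Angptl1 changed more in the GPSC lines than in ES. Col2a1, the collagen of cartilage, rose from 7.83 to 8.28 on day 7 up to 11.54 to 12.20 in the GPSC lines and read 7.78 and 8.62 in ES on day 14 (adjusted p = 0.0058). Car3, a carbonic anhydrase of muscle and fat, was detected on 0 ES arrays and rose by 3.97 for GPSC-A and 4.97 for GPSC-B (adjusted p = 0.0015). Angptl1, a secreted angiopoietin-like protein, was detected on 0 day 7 arrays and on 0 ES arrays of day 14, and was at least 5.20-fold higher for GPSC-A and 11.8-fold for GPSC-B (adjusted p = 0.0015). Isl1, a LIM homeobox gene of heart progenitors and motor neurons, changed by 2.31 and 2.15 in the GPSC lines and by -1.03 in ES (adjusted p = 0.017).

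Some interferon-induced genes differed by line. Gbp2, a guanylate-binding protein, went from 12.39 to 13.34 down to 9.09 to 9.93 in the GPSC lines and stayed at 9.67 to 10.10 in ES (adjusted p = 0.0058). Isg15, a ubiquitin-like modifier, changed by -1.81 for GPSC-A, -1.63 for GPSC-B and 2.33 for ES (adjusted p = 0.0067). The antiviral gene Ifitm3 changed by -1.47 for GPSC-A, -1.06 for GPSC-B and 1.61 for ES (adjusted p = 0.0065). Oas1g, an antiviral enzyme, changed by -2.01 for GPSC-A, and was at least 2.56-fold lower for GPSC-B and at least 2.40-fold higher for ES (adjusted p = 0.0034). In the interferon and antigen presentation list 5 of 18 tested genes were called lower in the 3 lines together and 0 higher (limma; 9 and 3 at an unadjusted p under 0.05), and 5 differed by line. The count of lower genes was 0 without GPSC-A, 0 without GPSC-B and 13 without ES.

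**Figure D5:**
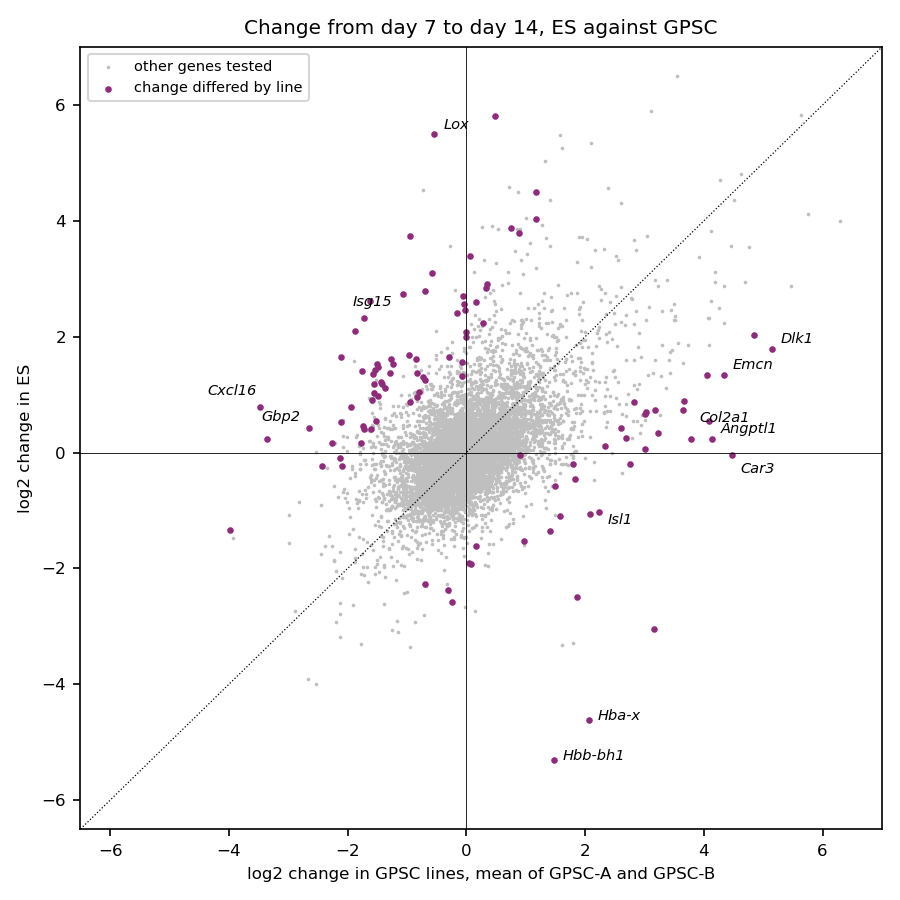
Log2 change from day 7 to day 14 in ES (vertical axis) against the mean of the changes in GPSC-A and GPSC-B (horizontal axis) for the 9388 genes tested; purple points are the 108 genes whose change differed by line and the dotted line marks equal changes. Lox lies at 5.49 in ES near 0 in the GPSC lines, the globins Hbb-bh1 and Hba-x lie at -5.30 and -4.61 in ES, and Col2a1, Car3 and Angptl1 lie far to the right near 0 in ES. Points are fitted changes, undetected arrays included.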

How the data were processed

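RNA of whole cultures was measured on Illumina bead arrays, of which 12 of 42 enter the comparison. The deposited scanner intensity is not normalised, per the file headers, and each probe has a detection p-value deposited by the authors. The software was GenomeStudio, per the submitters' processing notes. Intensities of all 42 arrays were background-corrected and quantile-normalised with neqc (limma 3.58.1, R 4.3.3, offset 16) and taken to log2. The value table the authors deposited was an alternative.

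Of 45281 probes 34885 have 1 gene symbol, 18 several and 10378 none in the platform annotation. Probes detected at p under 0.01 on at least 2 of the 12 arrays were kept (16160), and each gene took its probe with the highest mean (9388 genes). limma's lmFit and eBayes were run with line as a block, and an F test of the line-by-day terms asked whether lines differed. p-values were adjusted by Benjamini-Hochberg over all genes tested. Simulated data had independent noise per array and the same change in every line. There 98% of changes of 1.5 and 100% of changes of 3 (log2) were recovered, and 1 unchanged gene was called among the 9388 fitted. The real arrays deviate together by replicate number and lines differ, so these rates need not hold for them. The number of arrays limits the precision. Groups of 2 arrays are too small for a test of single outlying arrays.

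Genes were named from the largest rises, falls and bounds, the largest called changes of 31 lists, the smallest line-by-day p-values and a fixed set of stage markers. The members and lists were chosen with earlier results of these data known. Replicate numbers come from the titles, and same-numbered arrays of a line deviated together from their group means (correlations of 0.29 for ES, 0.53 for GPSC-A and 0.58 for GPSC-B across genes), so fits with these pairs as a block are alternatives. Other alternatives changed scaling, background, offset, filter, probe choice and the arrays included. Promoter sequences are RefSeq's (GRCm38.p6). Figures were drawn with matplotlib 3.10.9.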

Additional observations from a re-analysis of the deposited data

Results flagged for a closer look

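Each gene below had a change from day 7 to day 14 that differed between lines in the F test of the line-by-day terms. The value is the ES change minus the mean of the GPSC-A and GPSC-B changes, on the log2 scale, and the adjusted p is that of the F test. The value was 6.03 for Lox (adjusted p = 0.00033), -3.55 for Col2a1 (0.0058), -3.89 for Angptl1 (0.0015) and -4.52 for Car3 (0.0015). The embryonic globins Hbb-bh1 and Hba-x differed by -6.77 and -6.68 (adjusted p = 0.0058 and 0.031). The interferon-induced genes Isg15, Oas1g, Gbp2 and Ifitm3 differed by 4.05, 3.77, 3.59 and 2.88 (adjusted p = 0.0067, 0.0034, 0.0058 and 0.0065). For the transcription factors Isl1, Ebf3, Hoxd10 and Hoxd13 the differences were -3.26, -2.82, -2.72 and -2.44 (adjusted p = 0.017, 0.043, 0.049 and 0.017). Dlk1 differed by -3.35 and Emcn by -3 (adjusted p = 0.033 and 0.023), while Acta1 and Cldn4 differed by 2.64 and 2.43 (adjusted p = 0.032 and 0.019). For Lox, Angptl1, Car3, Oas1g, Hbb-bh1, Hba-x, Hoxd13 and Emcn at least 1 line was undetected on a day, so that these fitted differences are no measured sizes and only the bounds given above hold. As given above, the number of genes that differed by line changed with single arrays.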

How the results depend on the processing

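Every alternative run called more genes higher than lower. Without background correction 264 genes were called higher and 84 lower, while 287 were higher and 89 lower with the values the authors deposited. A larger offset left 165 lower. Without ES 462 were lower, and without GPSC-B 392 were higher and 161 lower. Median scaling gave 771 higher and 213 lower (78.4% higher, against 67.8%). The number of genes that differed by line was 57 with median scaling, 66 without the detection filter, 237 in a fit of all 42 arrays and 353 with replicate pairs as a block within lines. Leaving out 1 array gave 567 to 631 genes higher, 236 to 340 lower and 20 to 118 that differed by line. The replicate block within lines gave 588 higher and 273 lower and, among the genes named in the text, changed no call other than that of Trf. The pluripotency list had 6 members lower without background correction. Hba-x turned to 2.07 without ES. Of the 105 genes named in the text and called, all but Fah, Gata6 and Trf kept the call without any 1 array. Each of these fits kept the other array of that line and day, so it is a weak check. Of the same genes, 24 lost the call without GPSC-B, 11 without GPSC-A and 5 without ES. The losses were 18 without the line block, 15 without background correction and 13 with the values the authors deposited. The cause of these shifts was not tested. Probes near background limit what can be called: folds of dim genes are bounds.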

Other observations

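In the trophoblast list 4 of 12 tested genes were called lower and 0 higher (limma; 6 and 0 at an unadjusted p under 0.05), with a median of -0.60. Besides Cdx2 and Eomes, which the streak list also holds, they included Plac1, a placental surface protein, at -1.36 ± 0.22 (adjusted p = 0.00082). Of 9 germline genes 2 were lower and 0 higher (limma; 5 and 0 unadjusted; 1 lower in 3 of the 12 fits without 1 array), one being Tdrd12, a Tudor protein of piRNA formation, at -1.59 ± 0.28 (adjusted p = 0.0016). The erythroid list had 2 of 19 genes lower and 0 higher (limma; 5 and 1 unadjusted), and 5 differed by line. Without ES 5 were higher and 1 lower, and 1 was lower in 10 of the 12 fits that left out 1 array. Its largest fall was that of Car2, a carbonic anhydrase of red cells and other tissues, at -2.43 ± 0.25 (adjusted p = 3.3e-05). In the keratin and surface ectoderm list 2 of 10 were lower and 0 higher (limma; 4 and 1 unadjusted), namely Sfn and Krt14, a basal keratin, at -1.23 ± 0.25 (adjusted p = 0.0038).

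In the hypoxia and glycolysis list 4 of 20 genes were higher and 0 lower (limma; 7 and 2 unadjusted), with a median of 0.24. With Vegfa they included P4ha2, a collagen prolyl hydroxylase, which rose by 1.5 ± 0.30 (adjusted p = 0.0036). The visceral endoderm and yolk sac list had 5 higher (20.8%) and 5 lower (20.8%) of 24, with 2 higher without the second GPSC-A array of day 14. Dab2, an endocytic adaptor, rose by 1.31 ± 0.22 and the endocytic receptor Lrp2 (megalin) changed by -1.43 ± 0.27 (adjusted p = 0.0013 and 0.0022). The higher gene of the simple epithelium and cholangiocyte list was the water channel Aqp1 (1.19 ± 0.27, adjusted p = 0.0074). In the smooth and skeletal muscle list 3 of 12 were higher and 1 lower (2 lower in 5 of the 12 fits without 1 array). The primed epiblast list had 2 of 8 lower and 0 higher (limma; 6 and 0 unadjusted). In the neural list 1 of 10 was higher (10%, against 6.35% of all genes) and 0 lower (limma; 3 and 2 unadjusted). The neural call was lost in 7 of the 12 fits without 1 array and with the replicate block, and 3 were called with median scaling.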
